A study of Mus musculus with 6 samples.

Results

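The collagen genes of the mouse atrium were examined as a family. They were chosen by name, as every gene of the deposited table whose symbol has the form of Col, a number, a and a number, which gave 44 of 43432 genes. Atrial RNA of 3 mice fed a high-fat diet (HFD) and 3 age-matched mice fed a control diet was sequenced. All 6 mice were wild-type C57/Bl6J, began their diet at 6 weeks of age and stayed on it for 10 weeks, and the RNA came from tissue of both atria, without a statement on how the sides were combined. Diets were assigned from the titles, which match the table's columns. The labels also carry a treatment field, and it names the other diet in each of the 6 samples, so every direction below rests on the titles.

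Collagens are secreted proteins in which 3 chains wind into a triple helix. The fibril-forming types (I, III and V in the heart) make the interstitial fibers that carry tension between myocyte bundles, fibril-associated types sit on their surface, and type IV forms the sheet-like network of the basement membrane around myocytes and vessels. Their deposition in the atrial wall is what histology calls fibrosis, and the genes are read here as RNA only.

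Values are normalized counts, which are reads per gene divided by one size factor per sample. Reads on genes ranged from 15874251 to 28971508 per sample, with control mouse 2 the deepest, and a limit of 3 reads corresponded to between 2.05 and 3.41 normalized counts, counting error only. Of the 44 collagen genes, 42 had a read in at least 1 sample, 33 had a mean of at least 10 normalized counts and were tested, 9 had reads but a lower mean, and 2 (Col19a1 and Col6a4) had no read in any sample. The depth allows up to 3.41 normalized counts for these last genes in the shallowest sample. The cardiac identity of the tissue was checked with 8 markers of atrial myocytes, whose summed level was 299905 to 534405 normalized counts in the HFD mice and 462102 to 502464 in the control mice. HFD mice 1 and 2 stood at 300092 and 299905, below the controls, and HFD mouse 3 above them. Of these 8 markers, 5 had an unadjusted p under 0.05 in limma, all lower in the HFD mice (5.55% of all genes), and 2 of them, Sbk2 and Gja5, also passed after adjustment (0.262% of all genes were lower). The part of this difference in the collagen values was not tested. The samples differed in collagen RNA within a diet. HFD mouse 3 had the highest value of the 6 samples for 15 of the 33 tested collagen genes and HFD mouse 1 the lowest for 17, so values without these mice are given where they matter.

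Collagen RNA took a small share of the atrial total. The share of all normalized counts on collagen genes was 0.228%, 0.284% and 0.354% in HFD mice 1, 2 and 3 and 0.257%, 0.216% and 0.241% in control mice 1, 2 and 3. The means were 0.289% ± 0.0631 and 0.238% ± 0.0207 (SD, n = 3 each), and the groups overlapped. The difference of 0.0505 percentage points was 0.0179 without HFD mouse 3.

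Per kilobase of the principal transcript, the scale on which genes can be compared with each other, Col3a1 and Col1a2 led in control atria, with 1283 and 1146 normalized counts per kb. Col1a1 followed with 962, Col4a1 with 823, Col4a2 with 656, Col6a2 with 649, Col6a1 with 570 and Col15a1 with 543. The next gene, Col5a2, was at 145 per kb, so a gap separates these 8 genes from the rest. In HFD atria Col4a1 stood at 1415 per kb and Col3a1 at 1404, and their order is not resolved, because both varied widely between the HFD mice.

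**Figure D1:**
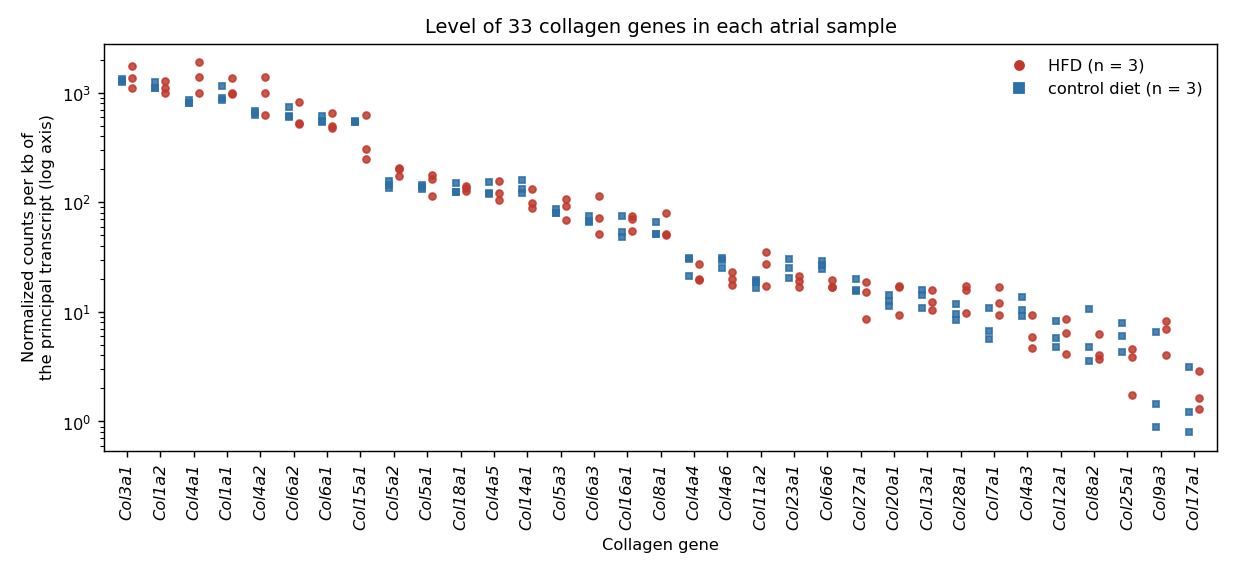
Normalized counts per kb of the principal transcript (log axis) of the 33 tested collagen genes, sorted by their mean over all samples, with 1 point per mouse (circles, HFD; squares, control). The 8 genes on the left form an upper tier, and the HFD points of Col4a1, Col4a2 and Col15a1 are spread more widely than the control points.

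The main comparison asked which collagen genes differed between the diets. In the limma test, 0 of the 33 collagen genes passed at an adjusted p of 0.05 (Benjamini-Hochberg over all genes tested), against 0.746% of the 15275 genes tested. At an unadjusted p under 0.05 there were 8 of 33 (24.2%), against 12.2% of all genes. Without HFD mouse 1, control mouse 1 or control mouse 2, in turn, there were 5 of 33 (15.2%), against 12.1%, 9.71% and 8.15% of all genes. Of the 8, 4 had higher values in the HFD mice (6.66% of all genes did) and 4 lower values (5.55%). The values of the diets did not overlap for 4 collagen genes (12.1%), against 18.0% of all genes, so this share was not above the background. Of these 4, 2 were higher in the HFD mice (8.86% of all genes) and 2 lower (9.17%). The edgeR quasi-likelihood test on recovered reads also gave 0 collagen genes (0.57% of all genes passed), and DESeq2 gave 1, Col4a1 (3.08% passed). Without HFD mouse 1 limma gave 1, again Col4a1 (0.327% of all genes passed), and without HFD mouse 3 it gave 1, Col15a1 (2.08% passed). The median log2 fold change was 0.02 over the 33 collagen genes, with a range from -0.82 to 1.39, and 0.00 over all genes tested. In bulk tissue, fewer cells of a type and less RNA per cell cannot be told apart.

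**Figure D2:**
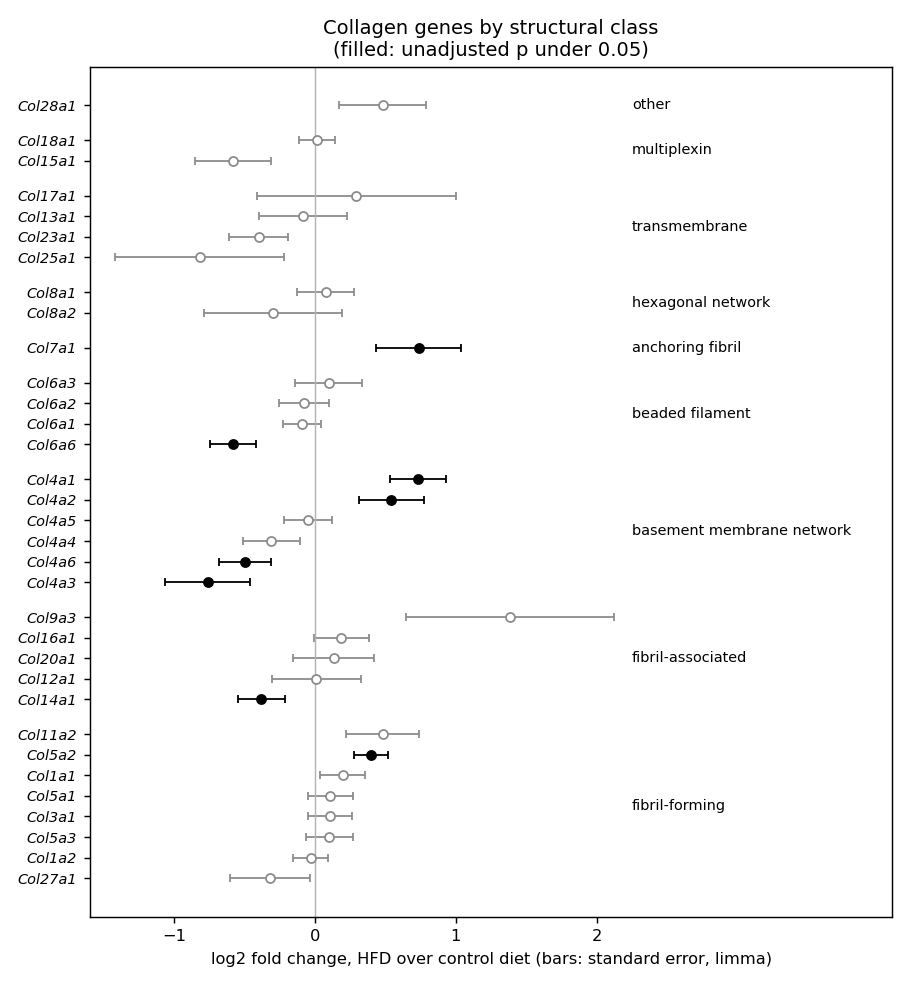
log2 fold change of HFD over control for each of the 33 tested collagen genes, grouped by structural class, with standard errors from limma and filled points for an unadjusted p under 0.05. The type IV chains lie on both sides of 0, from -0.76 for Col4a3 to 0.73 for Col4a1, while 6 of the 8 fibril-forming genes lie above 0.

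The basement membrane class held 4 of the 8 genes with an unadjusted p under 0.05, 2 higher in the HFD mice and 2 lower. This was 66.7% of its 6 tested genes, against 12.2% of all genes. Type IV collagen has 6 chains, each encoded by its own gene, and the genes lie in head-to-head pairs that read away from a shared stretch. Col4a1 and Col4a2 encode the chains of the ubiquitous network, Col4a3 and Col4a4 combine with Col4a5 in the network best known from the kidney glomerulus, and Col4a5 also combines with Col4a6 in basement membranes of smooth muscle. In the annotation of GRCm38, Col4a1 (chr8:11198423-11312826, minus strand) and Col4a2 (chr8:11312805-11449287, plus strand) overlap by 22 bases at their starts. Col4a4 and Col4a3 on chromosome 1 are 71 bases apart, and Col4a6 and Col4a5 on the X chromosome are 1308 bases apart.

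The stretches between the starts are shown because each pair shares 1 of them while its RNAs are read separately. They come from the RefSeq promoter windows (GRCm38.p6, from 250 bases before to 50 after a start), which covered 35 of the 44 collagen genes. Capitals mark matches, on either strand, to a CCAAT box (CCAAT), a GC box (GGGCGG), a C/T-rich box (CCCTCCC) or a TATA box (TATAAA). The first stretch holds the overlapping starts of Col4a1 and Col4a2 (chr8:11312801-11312830, plus strand), the second lies between Col4a4 and Col4a3 (chr1:82586850-82586920, minus strand), and the last ones precede Col4a6 (chrX:141474077-141474326, minus strand) and Col4a5 (chrX:141475169-141475384, plus strand).
Col4a1 and Col4a2 starts: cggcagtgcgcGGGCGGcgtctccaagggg
between Col4a4 and Col4a3: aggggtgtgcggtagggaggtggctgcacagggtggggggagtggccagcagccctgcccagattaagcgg
upstream of Col4a6: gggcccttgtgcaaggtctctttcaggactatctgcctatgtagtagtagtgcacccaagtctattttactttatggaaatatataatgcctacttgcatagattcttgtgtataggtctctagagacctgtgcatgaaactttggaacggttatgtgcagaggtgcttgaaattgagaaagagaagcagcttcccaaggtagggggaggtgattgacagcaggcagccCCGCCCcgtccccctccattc
upstream of Col4a5: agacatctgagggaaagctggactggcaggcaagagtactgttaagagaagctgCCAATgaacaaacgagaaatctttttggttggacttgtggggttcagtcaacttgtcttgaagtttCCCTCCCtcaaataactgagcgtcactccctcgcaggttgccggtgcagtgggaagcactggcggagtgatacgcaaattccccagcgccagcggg

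The printed stretches differ in length, so their matches cannot be compared between the pairs. The GC box appears once in the 30 bases printed for Col4a1 and Col4a2 and once upstream of Col4a6, the CCAAT and C/T-rich boxes once each upstream of Col4a5, and none of the 4 motifs in the 71 bases between Col4a4 and Col4a3. In their whole windows, Col4a1 and Col4a2 each had 1 CCAAT box and 1 C/T-rich box, with 1 and 3 GC boxes. Col4a5 had 1 CCAAT box, 1 GC box and 2 C/T-rich boxes, Col4a6 had 1 GC box, and Col4a4 had none of the 4 motifs. Over whole windows, a GC box was found in 60.5% of the 38 collagen windows and 35.7% of all 32851 windows, a C/T-rich box in 50% and 22%, a CCAAT box in 34.2% and 37.4%, and a TATA box in 13.2% and 13.6%. These are matches of letters and not measured binding.

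Col4a1 was measured at 6518, 9107 and 12449 normalized counts in HFD mice 1, 2 and 3 and at 5342, 5674 and 5322 in control mice 1, 2 and 3. All HFD mice lay above all control mice, and the HFD values spread far more. The log2 fold change was 0.73 ± 0.20 (SE), with an unadjusted p of 0.00366 and an adjusted p of 0.13 in limma. Without HFD mouse 1 it was 0.97 with an adjusted p of 0.0375, and without HFD mouse 3 it was 0.50 with an adjusted p of 0.122. DESeq2 gave 0.78 with an adjusted p of 0.00265.

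Col4a2 was at 4023, 6451 and 8983 normalized counts in the HFD mice and at 4244, 4412 and 4033 in the control mice. HFD mouse 1 lay just below the lowest control mouse, so the groups overlapped. The log2 fold change was 0.54 ± 0.23 (SE, adjusted p = 0.381 in limma), and it was 0.27 without HFD mouse 3 and 0.85 without HFD mouse 1. Both genes thus had their highest value in HFD mouse 3 and their smallest HFD value in HFD mouse 1.

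The mean values of the 4 minor chains were all lower in the HFD mice, with Col4a5 well inside the spread. Col4a4 was at 202, 273 and 195 normalized counts in the HFD mice and at 308, 314 and 213 in the control mice. HFD mouse 2 alone lay inside the control range of Col4a4. Col4a3 was at 50.2, 80.6 and 39.8 normalized counts in the HFD mice and at 89.6, 116 and 77.6 in the control mice, with only HFD mouse 2 inside the control range. Its log2 fold change was -0.76 ± 0.30 (SE, adjusted p = 0.339 in limma), while its neighbor Col4a4 had -0.31 ± 0.20 (adjusted p = 0.592). Col4a6 was at 118, 154 and 133 against 198, 166 and 207 normalized counts, without overlap, and its log2 fold change was -0.50 ± 0.18 (adjusted p = 0.299). Its neighbor Col4a5, far more abundant at 131 against 28.6 normalized counts per kb in control atria, had -0.05 ± 0.17 (adjusted p = 0.946). Among genes annotated over these loci, Gm15079 overlaps Col4a6 on the opposite strand with a mean of 26.3 normalized counts, and whether the counting used strand is not stated.

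The makeup of type IV RNA was read from the same values, a description added after the values were seen. Col4a1 and Col4a2 together made up 90.9%, 91% and 94.9% of the normalized counts of the 6 chains in the HFD mice and 87.4%, 88.1% and 86.2% in the control mice. The share of Col4a3 and Col4a4 was 2.17%, 2.07% and 1.04% in the HFD mice and 3.62%, 3.75% and 2.68% in the control mice. The share of Col4a5 and Col4a6 was 6.88%, 6.93% and 4.07% against 9%, 8.2% and 11.1%. None of these shares overlapped between the diets, they add to the whole and so depend on each other, and they were not tested.

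**Figure D3:**
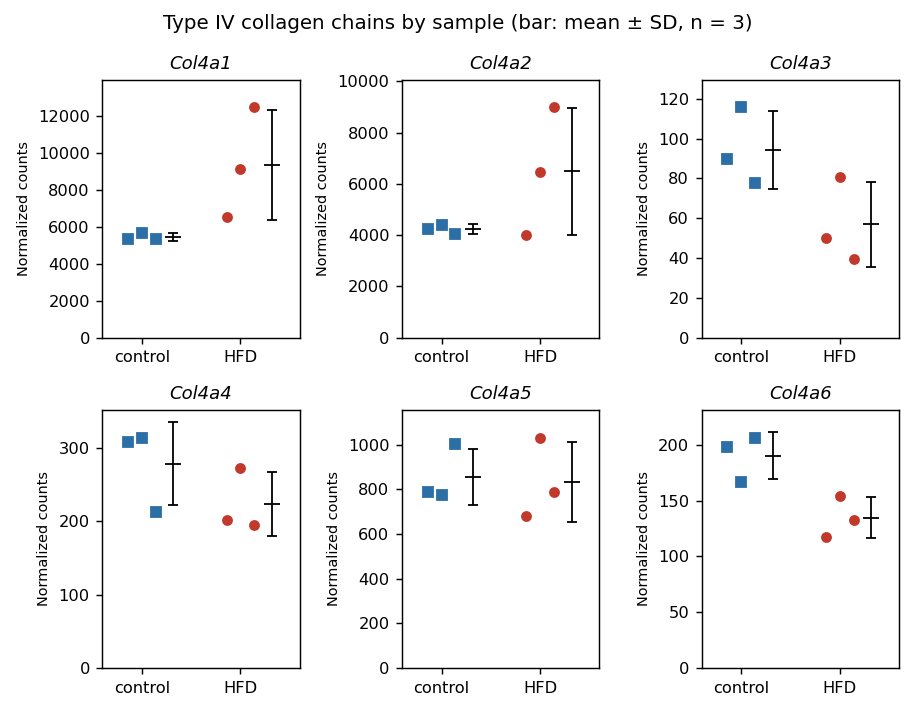
Normalized counts of the 6 type IV chains in each mouse (circles, HFD; squares, control), with mean ± SD (n = 3) at the right of each group and axes from 0. The HFD mice lie above the control mice for Col4a1 and below them for Col4a6, and for Col4a2 HFD mouse 1 lies just below the control values and the other HFD mice above them.

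Within the sample, Col4a1 was at 1.62, 1.41 and 1.39 times Col4a2 in the HFD mice and at 1.26, 1.29 and 1.32 times in the control mice. The log2 ratio was larger by 0.19 in the HFD mice without overlap, with a two-sided exact permutation p of 0.1, the smallest that 3 mice against 3 can give, and 0.35 after adjustment over the 7 ratios compared. Type IV RNA was also set against type I. Col4a1 was at 1.11, 1.58 and 1.55 times Col1a1 in the HFD mice and at 0.788, 1.13 and 1.01 times in the control mice, and these groups overlapped (log2 difference 0.54, exact permutation p = 0.2, adjusted 0.35). Of the basement membrane genes in the lists used here, 3 are no collagens. The log2 fold changes of the nidogens Nid1 and Nid2, which link laminin to type IV collagen, were -0.10 ± 0.14 and -0.04 ± 0.14 (SE), and that of Hspg2, the core protein of perlecan, was 0.15 ± 0.16.

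Cell type markers are given beside these values. The summed level of 10 endothelial markers was 20771 to 22198 normalized counts in the HFD mice and 17793 to 18355 in the control mice without overlap, and 9 of the 10 had a positive log2 fold change (3 at an unadjusted p under 0.05, all higher, against 6.66% of all genes, and 0 after adjustment in limma). For 10 markers of mural cells, the pericytes and smooth muscle of vessels, the range was 37267 to 44810 against 32000 to 37277, overlapping slightly between HFD mouse 2 and control mouse 1. Most of that sum was Des, the desmin gene, which cardiac myocytes also express, and the other 9 markers summed to 13859 to 14393 against 12190 to 13483 without overlap, a split made after the values were seen. Of the mural markers, 6 had a positive log2 fold change and 4 (Kcnj8, Abcc9, Pdgfrb and Cspg4) a negative one. Only 1 of the 10, Cnn1, had an unadjusted p under 0.05 in limma, higher in the HFD mice, against 6.66% of all genes. The part of endothelial and mural cells in the type IV values was not tested.

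The fibril-forming class was represented by 8 tested genes of 11. Of these, 1, Col5a2, had an unadjusted p under 0.05 (12.5%, against 12.2% of all genes). Col3a1, Col1a1 and Col1a2 encode the chains of types III and I, the bulk of cardiac fibers. Col3a1 was at 6139, 7628 and 9669 normalized counts in the HFD mice and at 7085, 6946 and 7383 in the control mice. The control mice lay inside the HFD range, and the log2 fold change of 0.11 ± 0.16 (SE, adjusted p = 0.841 in limma) became -0.06 without HFD mouse 3.

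Col1a1 was at 5898, 5747 and 8011 normalized counts in the HFD mice and at 6783, 5034 and 5291 in the control mice. The groups were mixed, and the log2 fold change was 0.20 ± 0.16 (SE, adjusted p = 0.683). Col1a2, which supplies the remaining chain of the type I trimer, was at 5303, 5886 and 6889 against 6631, 5934 and 5828 normalized counts. Its log2 fold change was -0.03 ± 0.13 (adjusted p = 0.956), within the spread of either group. The ratio of Col1a1 to Col1a2 averaged 1.08 ± 0.0965 in the HFD mice and 0.926 ± 0.0888 in the control mice (SD, n = 3 each, exact permutation p = 0.2, adjusted 0.35), with overlap. The ratio of Col1a1 to Col3a1 had a log2 difference of 0.09 (exact permutation p = 0.5), which was also inside the spread.

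Type V collagen is built into the core of type I fibrils and limits their diameter. Col5a2 (chr1:45374321-45503282, minus strand) was at 1139, 1346 and 1333 normalized counts in the HFD mice and at 1036, 900 and 955 in the control mice. All HFD mice lay above all control mice. The log2 fold change was 0.40 ± 0.12 (SE), with an unadjusted p of 0.00699 and an adjusted p of 0.175 in limma, and it stayed between 0.35 and 0.48 whichever mouse was left out. Its partner chain Col5a1 was at 951, 1366 and 1504 against 1211, 1147 and 1120 normalized counts and overlapped (0.11 ± 0.16, adjusted p = 0.843). The ratio of Col5a1 to Col5a2 was 0.835, 1.01 and 1.13 in the HFD mice and 1.17, 1.27 and 1.17 in the control mice, without overlap. Its log2 difference was -0.29, again at the smallest exact permutation p of 0.1 (adjusted 0.35).

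Col5a2 and Col3a1 are neighbors on chromosome 1, tail to tail and 24614 bases apart with no gene between, and their log2 fold changes were 0.40 and 0.11. The other tested fibril-forming genes were Col5a3 (0.10 ± 0.17), Col11a2 (0.48 ± 0.26) and Col27a1 (-0.32 ± 0.28), none with an unadjusted p under 0.05 in limma. Col2a1, Col11a1 and Col24a1 had means under 10 and were not tested.

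The beaded filaments of type VI collagen surround cells and link them to the interstitial matrix. The main chains were Col6a1, Col6a2 and Col6a3, with log2 fold changes of -0.09 ± 0.14, -0.08 ± 0.18 and 0.10 ± 0.24 (SE). Col6a2, the most abundant of the class, was at 2062, 2091 and 3259 normalized counts in the HFD mice and at 2902, 2426 and 2356 in the control mice, so that HFD mouse 3 alone lay above the control range. The ratio of Col6a1 to Col6a2 averaged 0.908 ± 0.0841 and 0.915 ± 0.0498 (SD, n = 3 each), with an exact permutation p of 1.0. The ratio of Col6a3 to Col6a1 averaged 0.312 ± 0.074 and 0.268 ± 0.0026 with an exact permutation p of 0.4.

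Col6a6 (chr9:105687809-105828160, minus strand), one of the later-described chains that can take the place of Col6a3, was the type VI gene with the clearest separation. It was at 149, 171 and 149 normalized counts in the HFD mice and at 214, 235 and 255 in the control mice. All HFD mice lay below all control mice. The log2 fold change was -0.58 ± 0.16 (SE), with an unadjusted p of 0.00439 and an adjusted p of 0.142 in limma, and the unadjusted p stayed under 0.05 whichever mouse was left out (0.00562 to 0.0198). Its neighbor Col6a5, 27917 bases away in the same direction, was at 9.04, 18.4 and 11.4 in the HFD mice and at 4.48, 6.16 and 2.19 in the control mice. These values did not overlap either and lay on the opposite side, but rest on 2 to 18 reads per sample and were below the minimum for testing.

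Col15a1 and Col18a1 are the multiplexins, collagens with interrupted triple helices that lie next to basement membranes. Col15a1 (chr4:47208161-47313167, plus strand), the most abundant of the class, was at 1278, 1587 and 3253 normalized counts in the HFD mice and at 2786, 2805 and 2838 in the control mice. The control mice agreed within 26.2 normalized counts (SD), HFD mice 1 and 2 lay far below them, and HFD mouse 3 lay above them. The log2 fold change was -0.58 ± 0.27 (SE, unadjusted p = 0.0562, adjusted p = 0.426 in limma). Without HFD mouse 3 it was -0.98 with an adjusted p of 0.00399, and without HFD mouse 1 it was -0.31 with an adjusted p of 0.669. The size of the Col15a1 difference therefore depends on which HFD mice are included. Col18a1, the source of endostatin, had 0.01 ± 0.13 (SE, adjusted p = 0.98), and it overlaps Slc19a1 on the opposite strand (mean 77.4 normalized counts).

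Col7a1, which builds the anchoring fibrils of epithelial basement membranes, was at 110.5, 155 and 87.5 normalized counts in the HFD mice and at 61.6, 52 and 99.5 in the control mice. HFD mouse 3 lay below control mouse 3, so the groups overlapped, and the log2 fold change was 0.74 ± 0.30 (SE, adjusted p = 0.356 in limma). Of the fibril-associated collagens, Col14a1, which binds the surface of type I fibrils, was the most abundant. It was at 503, 743 and 561 normalized counts in the HFD mice and at 694, 743 and 898 in the control mice. HFD mouse 2 reached the middle control mouse, and the log2 fold change was -0.38 ± 0.17 (SE, unadjusted p = 0.044, adjusted p = 0.389).

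**Figure D4:**
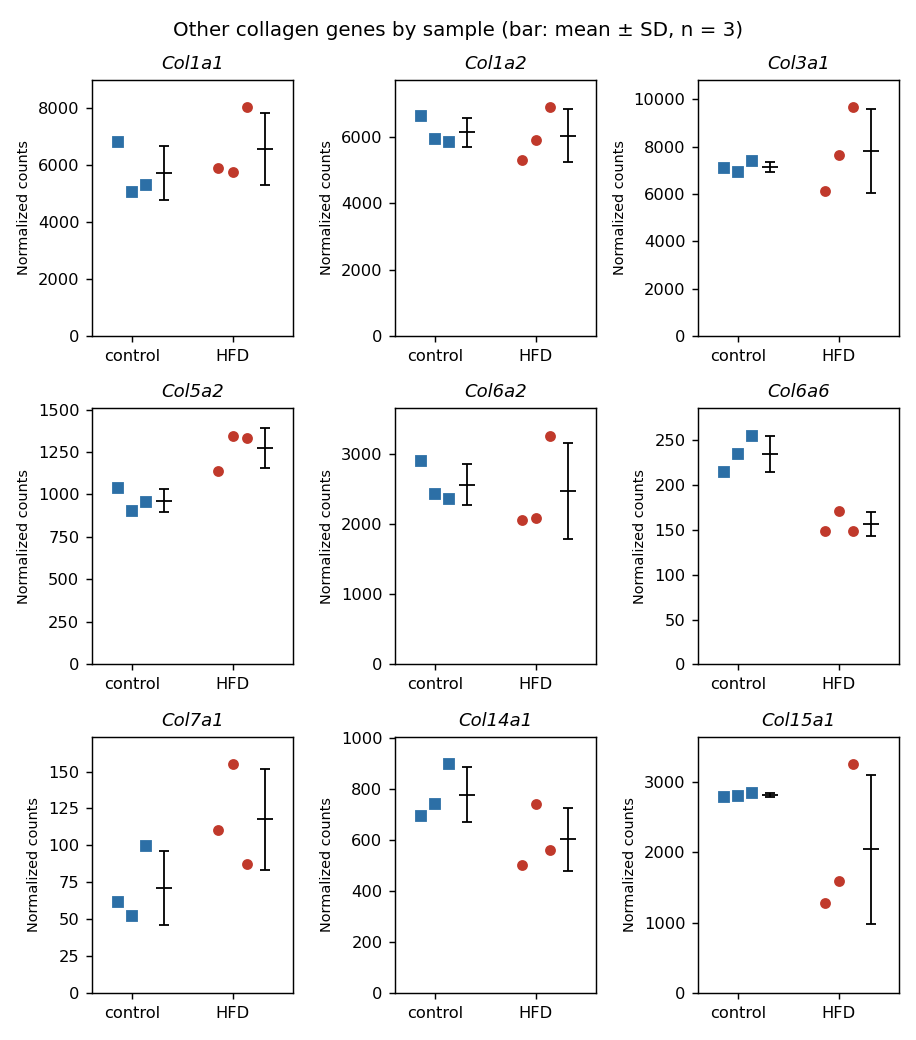
Normalized counts of 9 collagen genes outside type IV in each mouse (circles, HFD; squares, control), with mean ± SD (n = 3) at the right of each group and axes from 0. Col5a2 and Col6a6 separate the diets in opposite directions, and HFD mouse 3 is the highest of the 6 samples for Col1a1, Col1a2, Col3a1, Col6a2 and Col15a1.

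The remaining tested collagens had no unadjusted p under 0.05 in limma. Among them were the fibril-associated Col16a1 (0.19 ± 0.20), Col20a1 (0.13 ± 0.29) and Col12a1 (0.01 ± 0.32) and the hexagonal network genes Col8a1 (0.08 ± 0.20) and Col8a2 (-0.30 ± 0.49), with standard errors beside each log2 fold change. Col8a1 was at 257, 260 and 407 normalized counts in the HFD mice and at 261, 338 and 262 in the control mice, with overlap. The transmembrane collagens were Col23a1 (-0.40 ± 0.21), Col13a1 (-0.09 ± 0.31), Col17a1 (0.29 ± 0.71) and Col25a1 (-0.82 ± 0.60). Col23a1, the most abundant of them, was at 95.4, 108 and 120.4 normalized counts in the HFD mice and at 143, 116 and 173 in the control mice. HFD mouse 3 lay above control mouse 2. Col25a1 was at 12.1, 10.2 and 4.54 against 11.2, 15.7 and 20.8 normalized counts, overlapping at 4 to 23 reads per sample. Col28a1 was at 67.3, 72.4 and 40.9 against 40.3, 35.6 and 50.3 normalized counts (0.48 ± 0.31), with overlap.

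Of the collagens known from cartilage, Col2a1 and the type IX genes had at most 25 normalized counts in any mouse. Col9a3, a fibril-associated chain of cartilage, had the largest log2 fold change of the 33 tested genes, 1.39 ± 0.74 (SE, adjusted p = 0.499). It rested on 21.1, 12.2 and 25 normalized counts in the HFD mice and 20.1, 2.74 and 4.37 in the control mice, with control mouse 1 inside the HFD range. Col2a1, the main fibrillar collagen of cartilage, was at 24.6 in control mouse 1 and at or below 4.02 in the other 5 samples. Col9a1 was at 11.2 and Col9a2 at 12.3 in that mouse, against at most 2.01 and 5.68 elsewhere. The 8 chondrocyte markers summed to 2334.5 normalized counts in control mouse 1 and to 679 to 1024.5 in the other samples. Most of that sum was Comp, at 1540 in that mouse and at 460 to 756 in the others. Comp is also counted below among the fibril-binding genes. Chad was at 429 in that mouse and at most 86.7 in the others, while Matn1 and Matn3 stayed at or below 3.41 in all samples. The part of cartilage cells in these values was not tested. Col22a1, Col10a1 and Col26a1 had at most 11.2, 4.48 and 2.27 normalized counts in any sample, and Col10a1 lies within Nt5dc1 on the opposite strand, which had a mean of 179.

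As shares of all collagen normalized counts, the classes were compared between the diets. The basement membrane class made up 29.2%, 34.8% and 35.4% in the HFD mice and 23.7%, 26.8% and 25.2% in the control mice. The fibril-forming class made up 47.2% ± 3.12 and 49.6% ± 1.25 (SD, n = 3 each), with overlap. Beaded filament genes took 10.9% ± 0.771 and 13.1% ± 0.506, and multiplexins 5.15% ± 0.836 and 7.83% ± 0.21, and neither class overlapped between the diets. These shares depend on each other and on Col4a1 and Col4a2, which alone made up 30.6% ± 3.65 and 22% ± 1.44, and they were not tested.

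Collagen is made, modified, cross-linked, bound and broken down by other proteins, and 106 genes in 9 lists of such functions were read in the same fit. Of the 99 tested, 2 had an adjusted p under 0.05 in limma, both higher in the HFD mice (0.484% of all genes tested passed in that direction), and 0 were lower (0.262% passed). At an unadjusted p under 0.05, 14 were higher and 7 lower, together 21.2% against 12.2% of all genes. The median log2 fold change was 0.14 over these genes.

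Lox, lysyl oxidase, starts the covalent cross-linking of collagen and elastin, and was the gene of the 6 tested in its list that passed. It was at 260, 245 and 232 normalized counts in the HFD mice and at 122, 120.5 and 131 in the control mice, a wide separation with little spread. The log2 fold change was 0.97 ± 0.16 (SE, adjusted p = 0.0252 in limma). Leaving out a mouse kept the value between 0.93 and 1.01, but the adjusted p stayed under 0.05 only without HFD mouse 3 (0.0188) and was 0.0846 to 0.116 otherwise. The relatives Loxl1, Loxl2, Loxl3 and Loxl4 had log2 fold changes of 0.18, 0.41, 0.03 and 0.22, none with an unadjusted p under 0.05.

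Among 12 tested collagen receptors, Adgrg1, an adhesion receptor for type III collagen, rose by 0.67 ± 0.13 on the log2 scale (SE, adjusted p = 0.0485). It was at 828, 842 and 846 normalized counts in the HFD mice and at 571, 562 and 451 in the control mice, without overlap. The adjusted p was 0.0582 in edgeR and 0.0675 with the replicate number as a block. Leaving out a mouse gave 0.0444 without HFD mouse 3 and 0.108 to 0.159 otherwise. The collagen-binding integrin chain Itga10 had 1.17 ± 0.34 (adjusted p = 0.165), and the receptor kinases Ddr1 and Ddr2 had -0.09 ± 0.12 and 0.20 ± 0.14.

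Of 20 profibrotic regulators tested here, 2 were higher and 1 lower in the HFD mice at an unadjusted p under 0.05, which is 15% against 12.2% of all genes. The smallest p belonged to Tgfbr2, a receptor chain for transforming growth factor beta, which was at 1906, 2262 and 1547 normalized counts in the HFD mice and at 1478, 1378 and 1515 in the control mice. The groups did not overlap, with HFD mouse 3 just above control mouse 3, and the log2 fold change was 0.37 ± 0.14 (SE, adjusted p = 0.327 in limma).

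The other lists had no gene past the adjusted threshold in limma. The prolyl hydroxylase list, which also holds Crtap and Ppib, had 9 tested genes. Of these, 4 (44.4%) had an unadjusted p under 0.05, all higher in the HFD mice, against 6.66% of all genes. The median log2 fold change of the list was 0.03, with 5 genes above 0 and 4 below. P4ha2 had the smallest p (797.6, 692 and 1082 against 661, 563 and 449 normalized counts, 0.61 ± 0.19, adjusted p = 0.196). Of 8 chaperone and export genes, Fkbp10, an isomerase of the endoplasmic reticulum for procollagen, was at 1058, 1059 and 1052 against 793, 698 and 586 normalized counts without overlap (0.62 ± 0.13, adjusted p = 0.0662). The smallest unadjusted p among 5 lysyl hydroxylase and glycosylation genes belonged to Plod3 (0.31 ± 0.15, adjusted p = 0.441), and among 7 propeptide processing genes to Pcolce2 (-0.28 ± 0.14, adjusted p = 0.457). DESeq2 called 8 genes of the 9 lists and edgeR called 1, Lox.

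On the side of binding and breakdown, 3 of 18 fibril-binding genes (16.7%, against 12.2% of all genes) had an unadjusted p under 0.05. Each had a negative log2 fold change. Of these 3, Comp overlapped between the diets, at 460, 493 and 720 normalized counts in the HFD mice and 1540, 756 and 689 in the control mice. Control mouse 1 stood far above the other samples for Comp. Ogn, which codes for the small proteoglycan mimecan, was at 1406, 1335 and 1450 normalized counts in the HFD mice and at 1781, 2021 and 2197 in the control mice (-0.51 ± 0.12, adjusted p = 0.0797), without overlap. Of 14 tested genes for collagen-degrading enzymes and their inhibitors, 4 were higher and 1 lower at an unadjusted p under 0.05. Together this was 35.7%, against 12.2% of all genes (6.66% higher and 5.55% lower). The lower one, Mmp15, a membrane-bound metalloproteinase, was at 1586, 1761 and 2352 against 3124, 3032 and 3191 normalized counts (-0.73 ± 0.14, adjusted p = 0.0529), without overlap. Its adjusted p was 0.0337 after quantile normalization, 0.043 with the replicate block and 0.00343 without HFD mouse 3. The higher ones were the inhibitors Timp1 (0.93 ± 0.21, adjusted p = 0.0826) and Timp4 (1.01 ± 0.26, adjusted p = 0.122) and the enzymes Mmp3 (0.70 ± 0.24, adjusted p = 0.262) and Mmp14 (0.40 ± 0.13, adjusted p = 0.199).

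**Figure D5:**
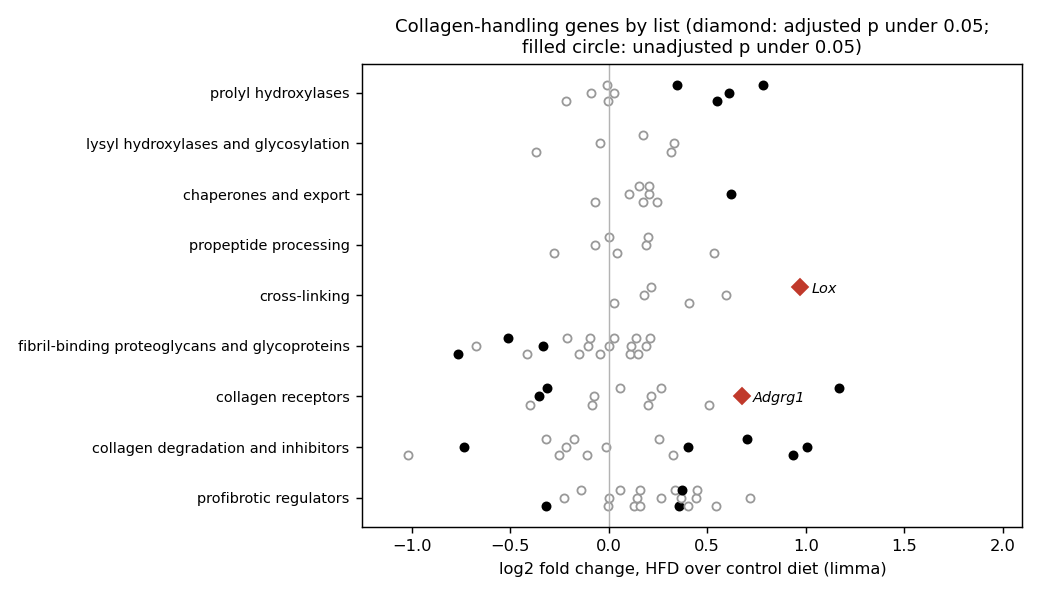
log2 fold change of HFD over control for the 99 tested genes that make, modify, bind or degrade collagen, by list, with diamonds for an adjusted p under 0.05 in limma, filled circles for an unadjusted p under 0.05 and open circles for the rest. The diamonds are Lox and Adgrg1, both above 0, and the filled circles of the prolyl hydroxylases all lie above 0 while those of the fibril-binding genes all lie below it.

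Markers of other cell types were read for the whole family. The 10 fibroblast markers summed to 99682 to 113866 normalized counts in the HFD mice and to 113346 to 136937 in the control mice, with overlap. Most of that sum was Gsn, at 65981 to 75569 against 77730 to 97267. Of the 10 markers, 5 had a positive log2 fold change and 5 a negative one. An unadjusted p under 0.05 was found for 2 of the 10, 1 in each direction, against 12.2% of all genes. Macrophage markers summed to 8415 to 9226 against 5960 to 7852 without overlap. Itgam passed the adjusted threshold, higher in the HFD mice, as did 0.484% of all genes. The 10 adipocyte markers summed to 9767 to 18437 against 4783 to 10164, with overlap. Fabp4 alone was at 5075 to 8820 against 2949 to 4228. Of the 10, 3 had an unadjusted p under 0.05, all higher (6.66% of all genes). Lep had a negative log2 fold change (-1.41 ± 0.79). The 4 brown adipocyte markers summed to 616 to 1283 against 187 to 330.3, without overlap. Lipe of the adipocyte list and Ucp1 and Cidea of the brown adipocyte list passed the adjusted threshold, all higher in the HFD mice (0.484% of all genes). The 8 Schwann cell markers summed to 1262 to 1668 against 1371 to 1637, and 6 of them had a negative log2 fold change. Ventricular myocyte markers ranged from 6920 to 9918 in the HFD mice and from 7958 to 17448 in the control mice, with control mouse 2 highest. Lymphoid and lung markers were low, at 33.7 to 104.5 and 7.7 to 19.2 over all samples, with Rag1, Dntt, Sftpb and Scgb1a1 at 0. The part of these cells in the collagen values was not tested.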

How the data were processed

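RNA of 6 atrial samples was extracted with a column kit and made into directional libraries by the authors. Reads were aligned with STAR to GRCm38, uniquely mapped reads were assigned to Ensembl genes with Salmon, and each sample's counts were scaled by its DESeq2 size factor. Tool versions are not given in the sources used here. These deposited values, called normalized counts, are a signal by the authors' scaling. In 100% of values a whole number of reads was recovered (within 0.001) by dividing by each sample's smallest positive value. The authors' own comparison, which holds log2 fold changes, p-values and scores, was not used. 1 item of the deposited table is not reported here. The table has 43433 rows, of which 1 names no gene and holds 0 in every sample.

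Groups were compared with limma 3.58.1 (lmFit, eBayes with trend, R 4.3.3) on log2(normalized count + 1). Genes entered at a mean of 10 or more, with Benjamini-Hochberg adjustment over 15275 genes and a threshold of 0.05. This log2 scale understates differences of low genes. Ratios were compared with a two-sided exact permutation test. Alternatives were edgeR 4.0.16 and DESeq2 1.42.0 on recovered reads, other scalings, filters and pseudocounts, no variance trend, the replicate number as a block, and each mouse left out. The fits were tested on simulated data. Transcript lengths and coordinates come from GENCODE M21 and promoter windows from RefSeq (GRCm38.p6). No window was used for Col1a1, Col2a1, Col4a3, Col5a2, Col9a3, Col12a1, Col14a1, Col22a1 and Col26a1.

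Members, lists and tests were chosen with earlier results of these data known. Named are collagen genes with an unadjusted p under 0.05, the 6 most abundant, the most abundant of each class and the 3 largest changes in each direction, and of each handling list the genes past the adjusted threshold or else the smallest p. Collagens, cartilage markers and relatives named beyond this rule were chosen after their values were seen. Samples are numbered within each diet and were taken as separate mice, and p-values measure only the spread between these samples, which may be partly technical.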

Additional observations from a re-analysis of the deposited data

How the results depend on the processing

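Over the fits that leave out a mouse, the number of collagen genes past the adjusted threshold ranged from 0 to 1 (Col4a1 without HFD mouse 1, Col15a1 without HFD mouse 3), that of all genes from 14 to 318 against 114, and that of the collagen-handling genes from 0 to 4 against 2. DESeq2 gave 1, 470 and 8, edgeR gave 1 handling gene, and limma without the variance trend gave 0 for all genes and 0 for the handling genes, with 1717 genes, 5 of them collagen genes, at an unadjusted p under 0.05. Over the leave-one-out fits, the log2 fold change crossed 0 for 15 of the 33 tested collagen genes, and for 0 of the 8 with the smallest unadjusted p. Of the genes named by rule these were Col3a1 (-0.0604 to 0.27), Col1a2 (-0.13 to 0.0571), Col6a2 (-0.30 to 0.0335) and Col8a1 (-0.14 to 0.20). The log2 difference of a ratio crossed 0 for Col1a1 to Col3a1 (-0.004 to 0.23) and Col6a1 to Col6a2 (-0.0664 to 0.063). The median log2 fold change of all genes lay between -0.0151 (quantile normalization) and 0.0103 (DESeq2). In the labels, the mice of the diets share only replicate numbers. The deviations of same-numbered mice correlated at 0.116, -0.027 and -0.004, and those of differently numbered mice at -0.147 to 0.16. These correlations cannot decide whether the mice were paired. With the replicate number as a block, 0 collagen genes and 157 genes in all passed (72% higher, against 64.9%). Of 686 values under an alternative, 603 kept their direction and their side of the threshold or moved by less than the replicate spread. With 3 mice a group, and with a low gene such as Col9a3 at 4 to 22 reads, differences of the sizes seen here may go undetected.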
